A study of Mus musculus with 12 samples.

Results

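The genes that give excitatory neurons of the hippocampus their identity were examined for lysine crotonylation on chromatin. The group holds 9 genes, listed by their function, with earlier results of these data known: the transcription factor genes Prox1, Neurod1, Neurod2, Neurod6, Zbtb20, Mef2c and Bcl11b, and the pyramidal cell markers Wfs1 and Fibcd1. They are 9 of 21887 protein-coding genes on chromosomes 1 to 19, X and Y. Each gene was taken with 10 kb on either side of its annotated GRCm38 span, here called its window, and every peak that reached into a window by at least 1 bp was a member peak. The windows held 9 of the 16002 learning peaks and 231 of the 331236 homecage peaks on these chromosomes.

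The peaks come from chromatin immunoprecipitation with sequencing (ChIP-seq) of dorsal hippocampus of C57BL/6J mice, with an antibody against crotonylated lysine in any protein (pan-Kcr). One library is from animals that had training in spatial object recognition, a test of memory for object places (learning) and the other from mice that stayed in the home cage (homecage). The labels give no age, sex or number of animals for these libraries. With 1 library per condition there is no replicate check and no test between conditions, and everything below describes these 2 peak lists. The deposited lists give positions without read counts or peak strengths, so the depth behind them is unknown, and the homecage list is far longer than the learning list over the whole genome. A peak list measures no expression, so the tissue label could not be checked against marker levels, and all cell types of the tissue contribute to one signal.

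As background, the granule cells of the dentate gyrus and the pyramidal cells of fields CA1 to CA3 are the glutamatergic principal neurons of the hippocampus. Their identity is set during development by transcription factors, several of which remain expressed in the adult. NeuroD factors are basic helix-loop-helix proteins that bind the E-box, a short palindromic motif. Crotonylation of histone lysines is an acylation that neutralises the lysine's charge and is found mainly at active promoters and enhancers.

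Start sites were taken from the RefSeq promoter table (GRCm38.p6), which gave 12 of them for the 9 genes. Each was examined as a window of 300 bp, from 250 bp before the start to 50 bp after it. No learning peak touched any of the 12 windows. Homecage peaks touched 4 of them, against 19.9% of the start windows of all protein-coding genes, and 5.21% for learning peaks. The sequences before 5 start sites are shown in the direction of the gene, with E-boxes (CANNTG, which reads the same on both strands) in capitals. The window of the first start of Prox1 and that of the first start of Mef2c were each covered over all 300 bases by a homecage peak. The start windows of the 3 NeuroD genes, which encode E-box-binding factors, held no peak of either list. Mef2c is shown over 233 bases because the rest lies inside the annotated gene.

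Neurod1 (chr2:79456637-79456886, minus strand): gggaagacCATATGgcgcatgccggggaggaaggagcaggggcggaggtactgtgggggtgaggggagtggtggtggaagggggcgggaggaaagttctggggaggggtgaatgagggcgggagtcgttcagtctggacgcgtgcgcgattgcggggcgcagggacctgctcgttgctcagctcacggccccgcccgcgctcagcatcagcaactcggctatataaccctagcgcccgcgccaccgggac

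Neurod2 (chr11:98329646-98329895, minus strand): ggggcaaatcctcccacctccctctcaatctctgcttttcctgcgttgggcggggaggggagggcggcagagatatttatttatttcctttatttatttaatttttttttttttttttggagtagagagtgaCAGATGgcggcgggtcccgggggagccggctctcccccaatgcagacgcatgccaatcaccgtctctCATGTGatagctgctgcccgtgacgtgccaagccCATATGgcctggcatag

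Neurod6 (chr6:55681264-55681513, minus strand): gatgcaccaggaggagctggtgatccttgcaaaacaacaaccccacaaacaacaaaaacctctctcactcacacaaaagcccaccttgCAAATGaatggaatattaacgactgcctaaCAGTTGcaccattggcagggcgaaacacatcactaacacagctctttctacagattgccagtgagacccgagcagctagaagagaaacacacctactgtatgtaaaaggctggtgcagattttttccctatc

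Prox1 (chr1:190170828-190171077, minus strand): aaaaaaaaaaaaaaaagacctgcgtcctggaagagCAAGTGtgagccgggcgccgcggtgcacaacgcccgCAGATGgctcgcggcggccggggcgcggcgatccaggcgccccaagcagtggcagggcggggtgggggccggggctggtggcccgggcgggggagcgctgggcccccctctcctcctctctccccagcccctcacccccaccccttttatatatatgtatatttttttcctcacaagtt

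Mef2c (chr13:83503784-83504016, plus strand): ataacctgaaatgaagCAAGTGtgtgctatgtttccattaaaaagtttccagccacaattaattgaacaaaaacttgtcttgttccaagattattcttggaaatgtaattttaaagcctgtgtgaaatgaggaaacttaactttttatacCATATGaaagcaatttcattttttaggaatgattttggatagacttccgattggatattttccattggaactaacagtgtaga

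The start sequences of these genes differ in composition. In the 250 bp before the start, Neurod1 had 67.6% G and C with 22 CpG dinucleotides, and Prox1, at its first start, had 64.8% with 20 CpG. Neurod2 was intermediate, with 52.8% and 11 CpG. Neurod6 had 46.0% with 3 CpG, and Mef2c, at its first start, had 33.6% with 1 CpG. Over the promoters of protein-coding genes the medians were 55.6% and 10.0 CpG. Homecage peaks thus covered both a CpG-rich start (Prox1) and a CpG-poor one (Mef2c). The other windows they touched, at the second start of Prox1 and at Bcl11b, had 11 and 9 CpG. No homecage peak touched the CpG-rich windows of Fibcd1 (34 CpG), Wfs1 (23) and Neurod1 (22). The CpG-poor windows of Neurod6 and Zbtb20 (3 CpG each) were not touched either. E-boxes stood 3 times before the Neurod2 start, 2 times before the Neurod6 start and the first starts of Prox1 and Mef2c, and 1 time before the Neurod1 start. At least 1 E-box was present at 8 of the 12 start sites of the 9 genes and in 62.8% of all promoters of this length, and at least 3 in 10.1%. A match here is a run of letters, not a bound site.

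In the learning library, 5 of the 9 genes had a peak in the gene or within 10 kb, compared with 35.4% of all protein-coding genes. In the homecage library, all 9 did, compared with 93.8%. The 5 genes with a learning peak, Prox1, Neurod1, Neurod2, Zbtb20 and Mef2c, therefore had peaks of both lists, as did 35.3% of all genes. Longer windows catch more peaks, so peaks are also given per 100 kb. Density can itself vary with window length, which was not tested. Summed over 1317 kb of windows, the homecage density was 17.5 peaks per 100 kb, 1.29 times the 13.6 per 100 kb over the windows of all protein-coding genes (exact Poisson 95% interval of the ratio 1.13 to 1.46). The learning density was 0.684 per 100 kb, 0.798 times the average of 0.857 (0.365 to 1.51). These intervals cover counting error only, and neighbouring peaks are not independent. Zbtb20 alone makes up 59.1% of the window length. Without it, the learning ratio was 1.52 (0.611 to 3.13) and the homecage ratio 1.38 (1.12 to 1.67), so the learning sum changed from below to above the average with 1 gene.

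**Figure D1:**
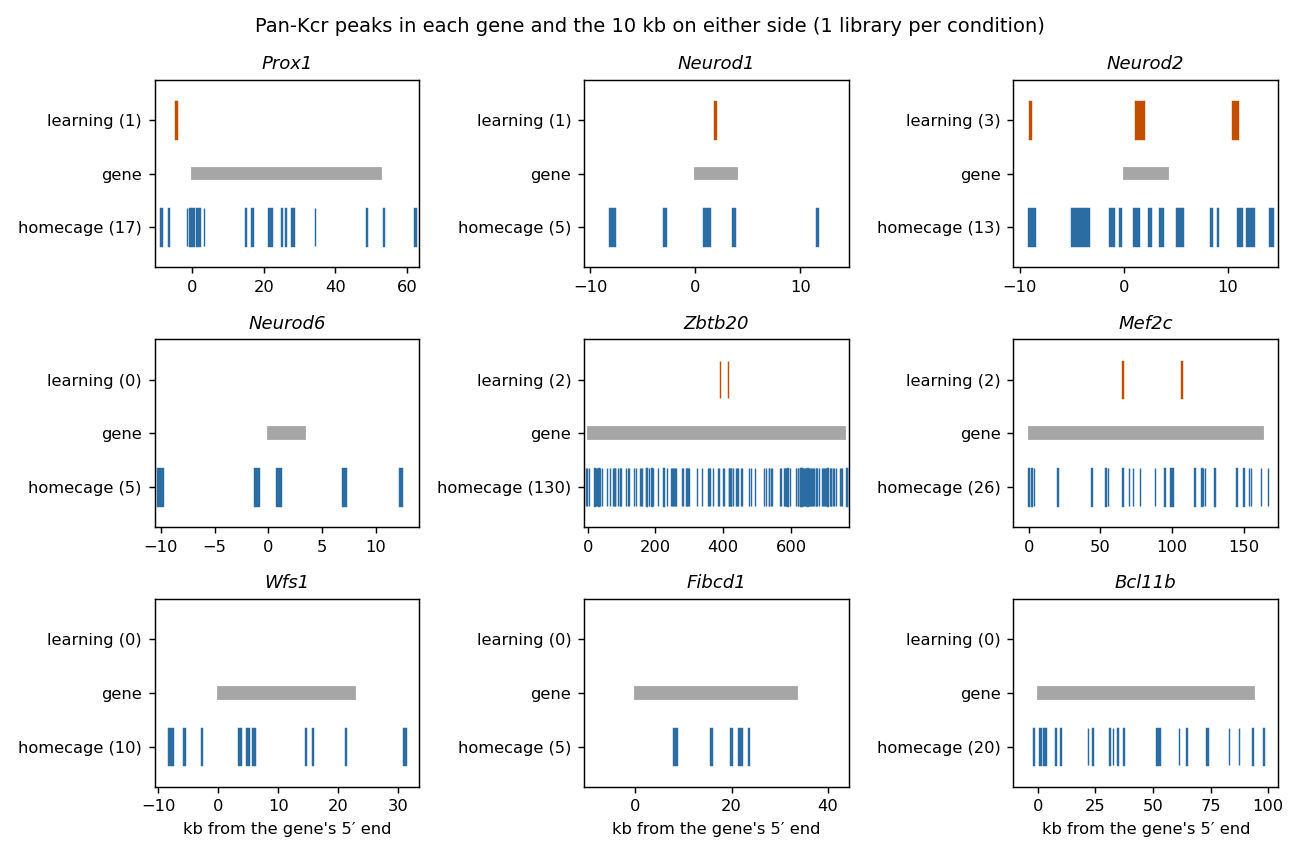
Position of every pan-Kcr peak in the windows of the 9 genes, in kb from the gene's 5′ end in the direction of the gene; the grey bar is the annotated gene, orange marks are learning peaks and blue marks homecage peaks, with their number in brackets. Narrow peaks are drawn with a minimum line width; the 9 learning peaks fall in 5 genes, and none lies at the 5′ end.

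The NeuroD genes code for the transcription factors that drive neuronal differentiation, Neurod1 chiefly in granule cells and Neurod2 and Neurod6 in pyramidal neurons of the forebrain. All 3 are compact genes with windows of 23.4 to 24.2 kb. Together they held 4 learning peaks where the average density gives 0.614, and 23 homecage peaks where it gives 9.77. That average is summed over windows of all lengths. The density over windows of like length was not computed, so the excess over compact genes is unknown. Neurod2 alone held 3 of the 4 and 13 of the 23. A learning peak was present at 2 of the 3 genes and a homecage peak at all 3. Among all protein-coding genes with windows from 23.4 to 30 kb, 28.2% had a learning peak and 93.5% a homecage peak.

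Neurod2 (chromosome 11, 98325415 to 98329645, minus strand) held 3 of the 9 learning peaks and 13 homecage peaks. The widest learning peak, 878 bp, lay inside the gene, 1077 bp past the start site (98327691 to 98328568), and shared 422 bp with a homecage peak of 593 bp (98328147 to 98328739). The second, 531 bp, lay downstream of the gene (98318693 to 98319223) and shared 106 bp with a homecage peak of 490 bp. The third, 146 bp, lay 8922 bp upstream, within the neighbouring protein-coding gene Gm33099 (98338567 to 98338712), and was wholly inside a homecage peak of 622 bp. All 3 learning peaks at Neurod2 thus met a homecage peak.

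The learning density at Neurod2 was 12.4 per 100 kb (exact Poisson 95% interval 2.55 to 36.2), 14.4 times the average over gene windows of all lengths. The homecage density was 53.7 per 100 kb (28.6 to 91.7), 3.94 times the average. A density at least as high was reached by 123 of 21887 genes in the learning list (0.562%) and by 30 in the homecage list (0.137%). In both lists it was reached by 17 (0.0777%). By number instead of density, 935 genes (4.27%), with windows of any length, had at least as many learning peaks. Neurod2 had the highest density of the group in both lists, so these shares describe its most extreme gene. Homecage peaks covered 28.6% of the Neurod2 window, compared with 5.17 to 10.7% of the other 8 windows. The 13 homecage peaks were 147 to 1797 bp wide, with 6 downstream of the gene, 3 inside it and 4 upstream. The widest (98332950 to 98334746) began 3305 bp upstream of the start site, reached into Gm33099 and met no learning peak. The nearest to the start was 147 bp wide and lay 284 bp upstream (98329929 to 98330075). The region around Neurod2 was itself rich in learning peaks: the 500 kb on either side held 27 of them, or 2.70 per 100 kb, compared with 0.200 to 1.30 around the other genes. The homecage density there, 15.3 per 100 kb, was within the 11.8 to 16.4 around the others. Relative to these surroundings, the window had 4.59 times the learning density and 3.51 times the homecage density. The learning ratio rests on 3 peaks, and the window's learning interval, 2.55 to 36.2, included the 2.70 of the surroundings. The homecage interval, 28.6 to 91.7, lay above the 15.3.

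Neurod1 (chromosome 2, 79452637 to 79456636, minus strand) had 1 learning peak of 146 bp inside the gene, 1819 bp past the start (79454672 to 79454817). This is the smallest width in the learning list. It overlapped no homecage peak, and the closest began 374 bp away. That homecage peak, 723 bp wide (79455192 to 79455914), was the widest of 5 at Neurod1 and also the nearest to the start, at 722 bp. The remaining 4 were 226 to 541 bp wide. Neurod6 (chromosome 6, 55677818 to 55681263, minus strand) had no learning peak. Its 5 homecage peaks were 203 to 551 bp wide. One of 450 bp lay inside the gene, 757 bp past the start (55680057 to 55680506), and one of 483 bp lay 864 bp upstream (55682127 to 55682609). The widest, 551 bp, lay at the upstream edge of the window in the lncRNA gene Gm3279 (55691060 to 55691610). Homecage densities at Neurod1 (20.8 per 100 kb) and Neurod6 (21.3) were close, and both intervals (6.76 to 48.6 and 6.92 to 49.8) included the average over all gene windows.

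Prox1 encodes the homeobox factor that maintains granule cell identity in the dentate gyrus (chromosome 1, 190118035 to 190170827, minus strand). Its only learning peak, 508 bp, lay 4239 bp upstream of the first start site, in the span of the lncRNA gene Prox1os (190175066 to 190175573). No homecage peak overlapped it, and the closest lay 1857 bp away. The 17 homecage peaks were 147 to 1227 bp wide. Homecage peaks lay on both start sites: a 657 bp peak on the first (190170458 to 190171114) and a 938 bp peak on the second (190168750 to 190169687), which covered 222 of the 300 bases of that window. The widest, 1227 bp, lay inside the gene, 19734 bp from the nearest start (190148555 to 190149781). Cut into 4 equal parts from 5′ to 3′, the gene held 3, 5, 2 and 1 homecage peaks by peak centre. The homecage density was 23.4 per 100 kb (13.6 to 37.4), and 90.2% of protein-coding genes had a lower one. Its surroundings held 2 learning peaks in 1000000 bp, the fewest around any of the 9 genes.

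Zbtb20, a zinc finger repressor needed for the development of CA1 pyramidal cells, is the longest of the genes (chromosome 16, 42875689 to 43634392, plus strand). It held 2 learning peaks, where the average density gives 6.67 (ratio 0.300, interval 0.0363 to 1.08). They were 238 bp (43266683 to 43266920) and 146 bp (43290288 to 43290433) wide and lay 19399 and 43004 bp past the one start site in the table, which is itself 372 kb inside the gene. Neither overlapped a homecage peak. The gaps to the closest were 3985 and 976 bp.

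The 130 homecage peaks at Zbtb20, 147 to 2679 bp wide, were 1.22 times the average number (1.02 to 1.45) and 1.41 times that of the surroundings. They were unevenly spread along the gene. Cut into 4 parts of 189.7 kb from 5′ to 3′, it held 32, 23, 25 and 46 of them by peak centre. Of the 8 peaks of at least 1000 bp, 5 lay in the last part. The closest 3 of these stood within 9034 bp (43502206 to 43511239) and included the widest homecage peak of all 9 windows, 2679 bp (43504768 to 43507446). No learning peak lay there. The homecage peak nearest to the start, 466 bp wide, ended 2807 bp before it (43244012 to 43244477).

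Mef2c encodes an activity-regulated MADS-box factor that restricts synapse number (chromosome 13, 83504017 to 83667079, plus strand). One learning peak of 246 bp (83569150 to 83569395) ended 4212 bp before the third start site and shared 52 bp with a homecage peak of 518 bp. The other, 526 bp (83610350 to 83610875), lay 36743 bp past that start in the span of the lncRNA gene Gm52043, and its closest homecage peak was 5922 bp away. The 26 homecage peaks were 147 to 795 bp wide, and their density, 14.2 per 100 kb (9.28 to 20.8), was 1.04 times the average. Each of the 3 start sites had a homecage peak within 1 kb. A 464 bp peak lay over the first (83503772 to 83504235), one of 378 bp began 390 bp past the second and one of 354 bp began 62 bp past the third. The widest, 795 bp, lay at 83633053 to 83633847. Bcl11b, also called Ctip2, is a zinc finger factor found in CA1 pyramidal and granule cells (chromosome 12, 107910403 to 108004145, minus strand). It had no learning peak, where the average density gives 0.975. Of its 20 homecage peaks, one of 804 bp lay over the start site (108002669 to 108003472) and covered 108 of the 300 bases of the start window. The widest, 1598 bp, lay 50659 bp past the start site (107951158 to 107952755).

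Wfs1, which encodes the endoplasmic reticulum protein wolframin, and Fibcd1, which encodes a receptor for acetylated ligands, are markers of CA1 pyramidal cells and not transcription factors. Neither had a learning peak, where the average density gives 0.827 for both together. Wfs1 (chromosome 5, 36966104 to 36988982, minus strand) had 10 homecage peaks of 147 to 722 bp, a density of 23.3 per 100 kb (11.2 to 42.9). The nearest to its start was 270 bp wide and lay 2646 bp upstream (36991628 to 36991897), and the widest, 722 bp, lay at 36996557 to 36997278. Fibcd1 (chromosome 2, 31813290 to 31846964, minus strand) had 5 homecage peaks, of 190, 925, 261, 518 and 883 bp from 3′ to 5′, all inside the gene. Its density of 9.32 per 100 kb (3.02 to 21.7) was the lowest of the 9. The start site of Fibcd1, with 34 CpG in 250 bp the most CpG-rich of the 12, had its nearest homecage peak 6802 bp away (31838321 to 31839203). At the other end, 20.1 kb held no homecage peak (31803290 to 31823347).

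The 4 genes without a learning peak, Neurod6, Wfs1, Fibcd1 and Bcl11b, had 40 homecage peaks, or 17.1 per 100 kb, and the 5 genes with a learning peak had 17.6 per 100 kb.

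**Figure D2:**
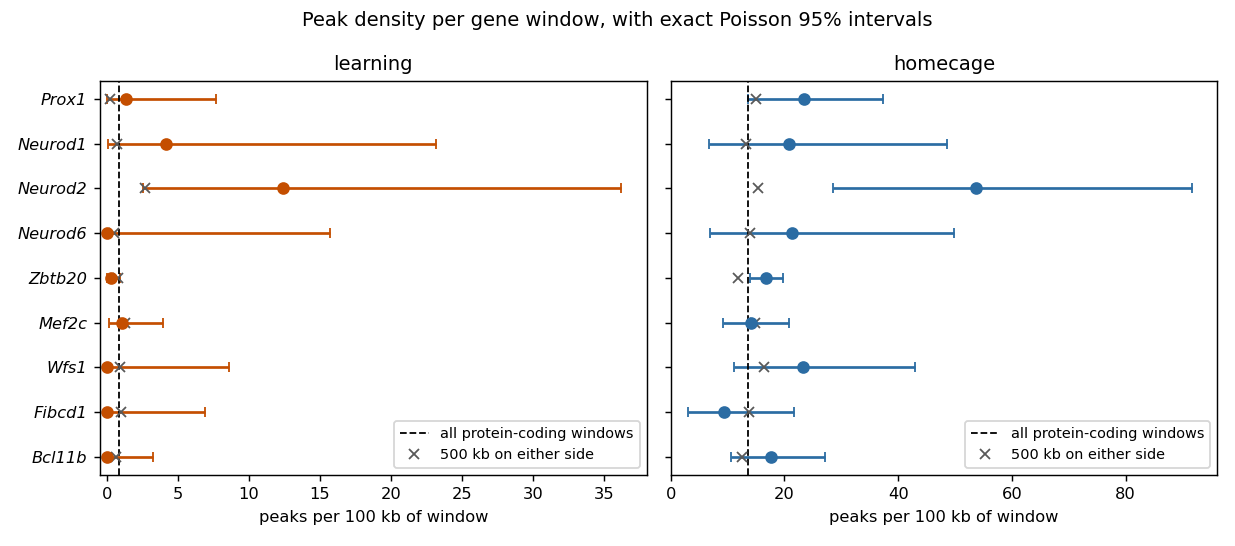
Peaks per 100 kb in the window of each gene, learning on the left and homecage on the right, on separate linear scales. Circles are the gene's value with its exact Poisson 95% interval, the dashed line is the average over the windows of all protein-coding genes and crosses are the 500 kb on either side. Neurod2, at 12.4 and 53.7, lies above the dashed line with its whole interval in both lists.

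Position relative to the start sites was counted over all 9 genes. Learning peaks came within 1 kb of an annotated start at 0 of the 9 genes, compared with 16.4% of the protein-coding genes in the promoter table. Homecage peaks lay that close at 6 of the 9, compared with 51.5%. For Zbtb20 these distances rest on the one start in the table, 372 kb inside the gene. A homecage peak of 168 bp (42875065 to 42875232) lay within 1 kb of the gene's 5′ end. With the 5′ ends of genes counted as starts too, a choice made after the peaks were seen, the counts were 0 and 7 of the 9, compared with 17.0% and 53.1%. A homecage peak touched a start window at 3 genes, Prox1, Mef2c and Bcl11b, compared with 21.3%, and a learning peak at 0, compared with 5.61%. Of the 9 learning peaks, 5 lay 1 to 10 kb from the nearest start and 4 lay 10 to 50 kb away. Of the 231 homecage peaks, 13 lay within 1 kb, 34 at 1 to 10 kb, 47 at 10 to 50 kb and 137 farther off, most of them in Zbtb20. By place, 6 learning peaks were inside a gene, 2 upstream and 1 downstream. For homecage peaks the numbers were 197, 18 and 16, or 85.3% inside genes, which make up 86.3% of the window length.

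A homecage peak overlapped 4 of the 9 learning peaks (44.4%, exact binomial 95% interval 13.7 to 78.8%), compared with 47.4% of the 9917 learning peaks in the windows of all protein-coding genes. The 3 at Neurod2 and 1 at Mef2c made up this count. None of these 4 pairs overlapped by at least 50% of both peaks. The share over all gene windows at this stricter rule is not reported here, so the 47.4% does not apply to it. From the other side, 4 of 231 homecage peaks (1.73%, 0.474 to 4.37%) met a learning peak, compared with 2.69% over all gene windows.

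The learning peaks were 146 to 878 bp wide, with a median of 246 bp, and the median of the whole learning list was 306 bp. They fell at both ends of the range: 3 had the list's smallest width, 146 bp, as did 8.90% of the list, and 4 were at least 500 bp wide, as were 15.6% of the list. The 4 wide ones were 2 at Neurod2, 1 at Prox1 and 1 at Mef2c. Among peaks of at least 500 bp, 3 of the 9 genes had a learning peak, compared with 8.23% of all genes, and the summed density was 2.01 times the average (exact Poisson 95% interval 0.547 to 5.14, from 4 peaks). Without the peaks of the smallest width, Neurod1 had no learning peak, 4 genes had one, and the summed density was 0.580 times the average (0.213 to 1.26). Homecage peaks had a median width of 354 bp, near the 351 bp of the whole list. Of them, 60 (26.0%) were at least 500 bp wide, compared with 24.8% of the list. At least 1000 bp was reached by 11 of the 231, compared with 3.04% of the list. These 11 were 8 at Zbtb20, which held 130 of the 231 homecage peaks, and 1 each at Prox1, Neurod2 and Bcl11b.

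**Figure D3:**
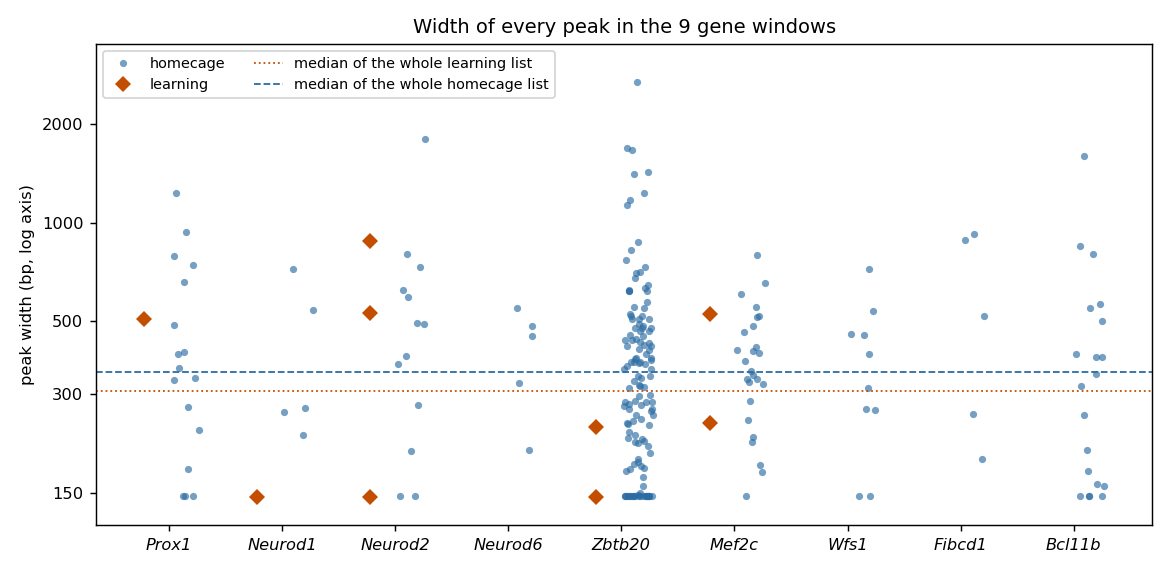
Width in bp, on a log axis, of every peak in the 9 windows, with learning peaks as orange diamonds and homecage peaks as blue circles spread sideways. Horizontal lines give the medians of the whole lists, 306 bp (learning) and 351 bp (homecage); the learning peaks range from 146 bp at Neurod1, Neurod2 and Zbtb20 to 878 bp at Neurod2.

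Another 38 genes of hippocampal excitatory neurons, listed by function, were counted in the same way. A learning peak was present at 27 of them and a homecage peak at 37, against the 35.4% and 93.8% of all protein-coding genes. Their median window, 46.2 kb, is longer than the 37.2 kb of all genes, which raises such shares. The median learning density was 1.38 per 100 kb, against 0 over all genes, and 0.257 for the 9 identity genes. The median homecage density was 16.8 per 100 kb, against 13.7 over all genes and 20.8 for the 9 identity genes. Summed over the windows, the learning density was 1.32 per 100 kb for the 38 genes and 0.857 for all genes. For the 9 identity genes it was 0.684, or 1.30 without Zbtb20. The summed homecage densities were 16.5 for the 38 genes, 13.6 for all genes and 17.5 for the 9 identity genes. Of the 28 with an entry in the promoter table, 14 had a learning peak within 1 kb of a start and 24 a homecage peak, against 16.4% and 51.5% of all genes in that table. The widest learning peaks were at Mef2a, a relative of Mef2c (1862 bp, chromosome 7, 67372117 to 67373978), at the bHLH factor gene Bhlhe22 (1222 bp, chromosome 3, 18054553 to 18055774) and at Rfx3 (1014 bp, chromosome 19, 28011335 to 28012348). All 3 lay inside the gene and overlapped a homecage peak. The widest homecage peaks were near Klf9 (3348 bp, chromosome 19, 23132910 to 23136257) and the calbindin gene Calb1 (3085 bp, chromosome 4, 15912875 to 15915959), both outside the gene.

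Markers of other cell types of the tissue, 9 genes each, were counted beside them. Interneuron genes had a learning peak at 0 of 9 and a homecage peak at 7. Astrocyte genes had a learning peak at 3 and a homecage peak at 9, oligodendrocyte genes at 4 and 8, and microglia genes at 2 and 8. Median windows were shorter, 28.5 kb for interneuron genes to 39.6 kb for microglia genes, against 53.7 kb for the identity genes. The median learning density was 0 in each of these 4 lists and 0.257 per 100 kb for the identity genes. That 0.257 is the value of Zbtb20, 2 peaks in 779 kb, and is below the average of 0.857 over all gene windows. The median homecage density ran from 8.50 (interneuron) to 18.0 (oligodendrocyte), compared with 20.8 for the identity genes. The summed learning densities gave another order: 0 for interneuron, 0.600 for astrocyte, 0.810 for microglia and 2.00 for oligodendrocyte genes, compared with 0.684 for the identity genes and 1.30 for these without Zbtb20. Summed homecage densities were 18.0 for oligodendrocyte genes and 17.5 for the identity genes (18.8 without Zbtb20). The remaining lists had 11.1 (interneuron) to 13.5 (microglia). Whether the lists differ beyond chance was not tested.

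**Figure D4:**
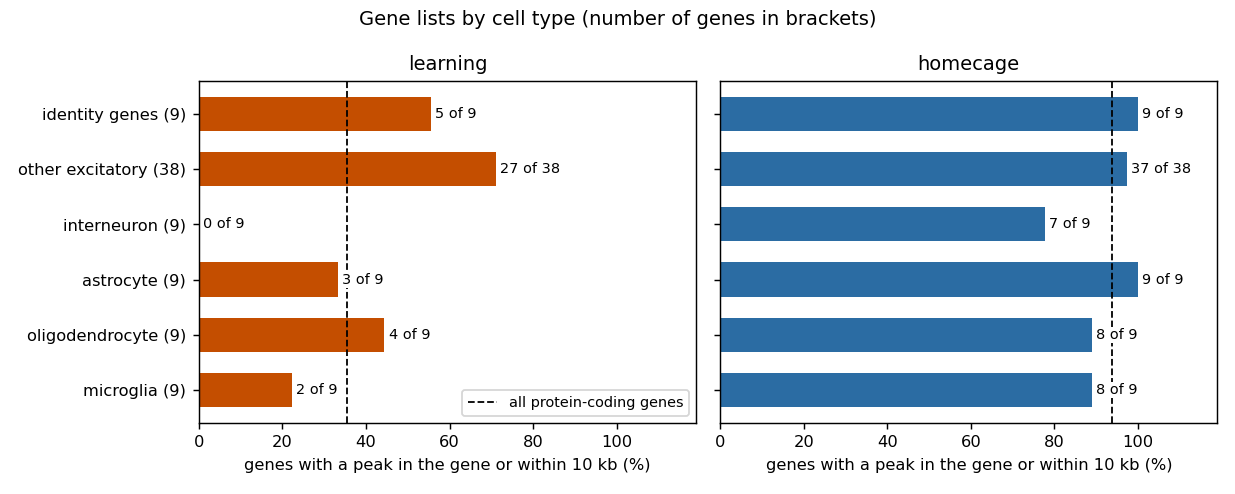
Share of genes, in percent, with at least 1 peak in the gene or within 10 kb, for the 9 identity genes, 38 other excitatory neuron genes and 4 marker lists of 9 genes each, in the learning library (left) and the homecage library (right). Dashed lines are the shares over all protein-coding genes, 35.4% and 93.8%; window lengths differ between lists.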

How the data were processed

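ChIP-seq peak lists of 2 libraries were used, 1 per condition; the 8 single-nucleus and 2 input libraries were not analysed here. Each deposited file holds chromosome, start, end and name of broad peaks, called at a p-value threshold of 0.01 per the peak names the authors deposited. The submitters' processing notes name Trimmomatic, BWA, MACS2 and mm10, without versions. Use of the input as control is not given in the sources used here. Chromatin was sheared to 200 to 500 bp per the labels' protocols.

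Gene spans and start sites came from RefSeq tables of GRCm38.p6, and all symbols of the lists matched. Exon positions were not used here. Average densities sum peaks and lengths over the windows of 21887 genes, so peaks in overlapping windows count more than once. Named peaks were fixed by rule: learning peaks up to the 5 widest per gene with their homecage partners, the widest homecage peak and the peak nearest to a start, and for the other excitatory genes the 3 widest per library, of which 1 is not reported here. Members, lists and comparisons were chosen with earlier results of these data known. The surroundings, groups of genes, gene parts, distance classes, motifs and smallest-width counts were chosen after the peaks were seen. Interval functions were tested on simulated data. The tools were scipy 1.17.1, numpy 2.4.6 and pandas 2.3.3 under Python 3.11.15, with matplotlib 3.10.9 for plots.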

Additional observations from a re-analysis of the deposited data

How the results depend on the processing

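No paired analysis was possible because learning and homecage have 1 antibody library each, which also leaves no replicate to omit. Of 56 values under other settings, 48 kept within a ratio's counting interval or 1.5 times a count, and 8 moved further. With peaks of at least 500 bp, 3 genes had a learning peak, the windows held 4 learning and 60 homecage peaks, and the learning density ratio was 2.01. Fewer peaks entered by construction. With only 1 kb around the gene ends, 0 genes had a learning peak, compared with 15.6% of all genes. With the homecage list shortened to its widest peaks, as many as the learning list has, 5 genes had a homecage peak, compared with 31.2% of all. When sharing required 50% of each peak, 0 learning peaks were shared, with no share over all gene windows to set beside it. Leaving out each gene in turn, the learning density ratio ran from 0.542 without Neurod2 to 1.52 without Zbtb20, and the homecage ratio from 1.24 without Neurod2 to 1.38 without Zbtb20. Peak strength and read depth are unknown, which limits every comparison of the lists.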

Other observations

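Nr2f1, a nuclear receptor gene of the developing hippocampus in the list of other excitatory neuron genes, was singled out after its values were seen. Its window of 29.9 kb on chromosome 13 held 5 learning peaks, 16.7 per 100 kb, above the 12.4 of Neurod2, and 10 homecage peaks, 33.4 per 100 kb, below the 53.7 of Neurod2. The widest learning peak, 707 bp (78198623 to 78199329), lay at the edge of the gene and overlapped a homecage peak.

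In the same list, Map3k15, on chromosome X, had no peak of either library in its window of 155 kb. It was the only one of the 38 genes on that chromosome and the only one without a homecage peak.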
